A study of Homo sapiens with 12 samples.

Results

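The expression of 10 adhesion genes was followed in KMS11, an established human myeloma line, and 3 lines made from it: the junctional adhesion molecules JAM2, JAM3 and F11R, the cadherins CDH1 and CDH2, the epithelial adhesion molecule EPCAM, and the immunoglobulin-type molecules NCAM1, ALCAM, PECAM1 and ICAM1. All probes that the array's annotation assigned to these genes were taken, whatever their values. Of the 10 genes, 9 had a probe, and together they had 13 of the 48803 probes on the array. NCAM1 had 4 probes, EPCAM had 2 and each of the other 7 genes had 1. F11R was not analysed here because the annotation used listed no probe for it. Of the 13 probes, 8 passed the detection filter, which required each of the 3 arrays of some line to have a detection p-value under 0.05, as did 15596 probes in all.

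KMS11 carries the t(4;14) translocation, which drives overexpression of 1 allele of MMSET, a histone H3 lysine 36 methyltransferase now named NSD2. TKO1 and TKO2 were 2 different clones in which the overexpressed MMSET allele had been inactivated, so they are the MMSET-low cells. In NTKO cells the wild-type allele had been inactivated and the overexpressed one kept, and the parental cells (WT) had both alleles, so these are the MMSET-high lines. All 4 lines share the KMS11 background, were grown in RPMI medium with serum, and were hybridised to 3 arrays each, 12 in all. Below, TKO stands for the 6 arrays of both clones, and a line is 1 clone or culture, so a difference between lines cannot be told apart from a difference between clones. Values are log2 normalised intensities, differences are log2 differences from limma with Benjamini-Hochberg adjustment over 15596 probes at a threshold of 0.05, and each p-value reflects array-to-array spread alone, which may be technical, as no label names the cultures behind the replicates. RNA came from whole cultures, in which fewer cells making a transcript and less transcript per cell cannot be told apart.

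Adhesion molecules of these families hold cells to one another and to the vessel wall. Cadherins bind the same cadherin on the next cell in the presence of calcium and link to actin through catenins. Junctional adhesion molecules carry immunoglobulin domains, sit at tight junctions of epithelium and endothelium, and pair with one another or with integrins on leukocytes. In bone marrow, where plasma cells and myeloma cells live, N-cadherin, ICAM1, NCAM1 and the JAM proteins lie on myeloma cells, stromal cells or endothelium, and their contacts take part in homing and retention.

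Across the arrays 14166 to 16684 probes were detected and mean intensity lay between 180.8 and 299.5. NTKO replicate 2 stood apart from the other arrays of its line. Over 9857 genes it correlated at 0.941 to 0.944 with the other NTKO arrays but at 0.973 to 0.978 with the WT arrays. NTKO replicates 1 and 3 correlated at 0.994. NSD2 itself, on 1 kept probe of 4, was lower in TKO than in NTKO by a log2 difference of -0.59 ± 0.17 (SE; limma, adjusted p = 0.0167) and than in WT by -0.69 ± 0.17 (adjusted p = 0.0104). TKO1 alone was not called against NTKO (adjusted p = 0.0918) or WT (adjusted p = 0.0685), nor was NSD2 over all 4 pairs (adjusted p = 0.322). Whether that probe lies in the inactivated part was not tested. Of 11 plasma cell markers 8 were detected on all arrays of each TKO clone, and 9 on all arrays of NTKO and of WT, CD38 being the additional one, while CD27 and SLAMF7 were detected on no array.

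Comparing TKO with NTKO asks which genes depend on the overexpressed allele, and comparing TKO with WT asks the same against the parental cells. The study also compared TKO with NTKO on arrays, but its methods describe 6 arrays of each, whereas the labels give 3 for NTKO. JAM2, JAM3, CDH2 and EPCAM were lower in both TKO clones than in both MMSET-high lines. CDH2 had the largest measured difference, with 8.65-fold less signal than in NTKO and 11.2-fold less than in WT. JAM2 was detected on no TKO array, so its fall has only a lower bound and cannot be ranked against that of CDH2. ALCAM was lower in TKO than in NTKO but not than in WT. Taken alone, TKO2 was called lower than NTKO for ALCAM (limma, adjusted p = 0.015) and TKO1 was not (adjusted p = 0.0557). Of the 8 kept member probes 6 fell in TKO minus NTKO and none rose, where 13.7% of all kept probes fell and 13.8% rose. In TKO minus WT 6 again fell and none rose, against 9.93% and 5.87% of all kept probes. In the strictest comparison, which asked TKO1 and TKO2 each to differ from NTKO and from WT in 1 direction, 4 of the 8 fell, 1 for each of JAM2, JAM3, CDH2 and EPCAM, against 3.37% of all kept probes. The median difference of the 8 probes was -1.04 in TKO minus NTKO and -0.99 in TKO minus WT, beside 0.06 and 0.04 over all kept probes. The JAM2 probe passed the filter only through NTKO and WT arrays, the NCAM1 probe only through WT arrays and the ALCAM probe only through NTKO arrays, so a lower TKO level was built into what let them be tested. The counts and the medians therefore describe 8 probes of 13, in genes chosen with earlier results known, and support nothing. The arrays of TKO lay wholly below those of NTKO for 6 of the 8 probes, as for 10.7% of all kept probes, and wholly below those of WT for 6, as for 13.1%. Both comparisons use the same TKO arrays.

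**Figure D1:**
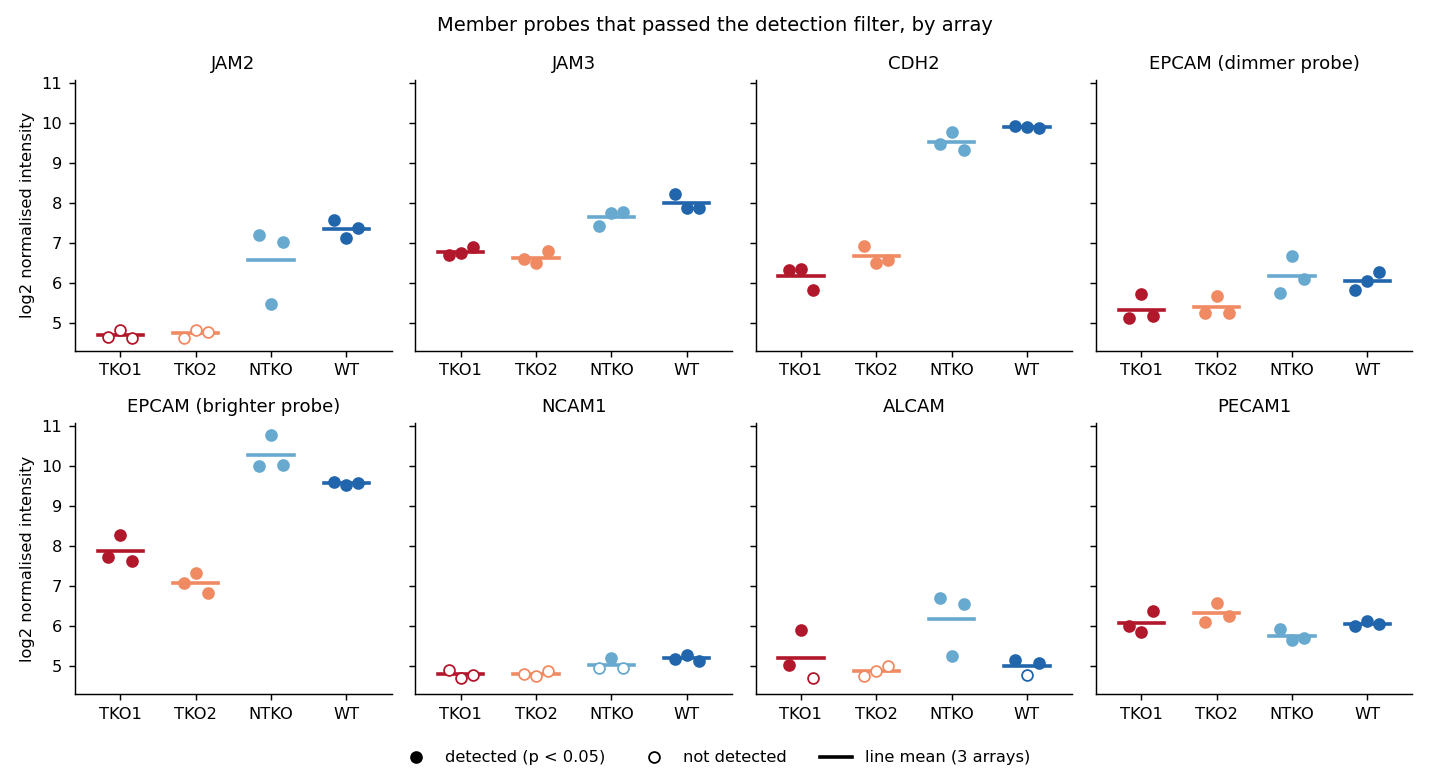
Log2 normalised intensity of the 8 kept member probes (y axis) on each array of TKO1, TKO2, NTKO and WT (x axis), with filled points for detected and open points for undetected arrays and a bar for the mean of 3 arrays. For CDH2 the 6 TKO arrays lie between 5.83 and 6.92 and all NTKO and WT arrays at or above 9.32, and in JAM2 the 6 TKO points are open.

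CDH2, or N-cadherin, is the cadherin of neural and mesenchymal cells and of osteoblast-lineage cells in marrow. Its log2 intensity was 6.32, 6.36 and 5.83 on the TKO1 arrays, 6.92, 6.50 and 6.57 on the TKO2 arrays, 9.49, 9.78 and 9.32 on the NTKO arrays, and 9.93, 9.90 and 9.88 on the WT arrays. All 12 arrays were detected, the TKO arrays lay far below the rest without overlap, and the WT arrays lay above every NTKO array. TKO minus NTKO was -3.11 ± 0.16 (SE; adjusted p = 1.11e-09) and TKO minus WT was -3.49 ± 0.16 (adjusted p = 6.25e-10). The 2 clones gave -3.36 for TKO1 minus NTKO and -2.87 for TKO2 minus NTKO. CDH2 signal was still detected on every TKO array, at detection p-values of at most 0.0158.

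Promoter sequence from RefSeq (GRCh38.p14) was at hand for 3 of the 10 genes. It is printed to set the member with the largest measured difference, CDH2, beside ALCAM, which moved in another pattern, and ICAM1, which was barely detected. Each run holds the 250 bases before the annotated start site, 5′ to 3′ on the gene's strand. Capitals mark 1 motif in each: the CCAAT box in CDH2, here read on the opposite strand, the E-box CAGGTG bound by SNAI and ZEB repressors in ALCAM, also on the opposite strand, and the NF-kB site GGAAATTCC in ICAM1. CDH2 is at chr18:28177131-28177380 on the minus strand, ALCAM at chr3:105366659-105366908 on the plus strand and ICAM1 at chr19:10270870-10271119 on the plus strand.
CDH2: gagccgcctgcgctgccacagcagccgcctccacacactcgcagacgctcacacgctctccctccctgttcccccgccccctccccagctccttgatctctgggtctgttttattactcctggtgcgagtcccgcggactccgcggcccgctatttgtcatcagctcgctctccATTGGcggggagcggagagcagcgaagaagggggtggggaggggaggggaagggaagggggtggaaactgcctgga
ALCAM: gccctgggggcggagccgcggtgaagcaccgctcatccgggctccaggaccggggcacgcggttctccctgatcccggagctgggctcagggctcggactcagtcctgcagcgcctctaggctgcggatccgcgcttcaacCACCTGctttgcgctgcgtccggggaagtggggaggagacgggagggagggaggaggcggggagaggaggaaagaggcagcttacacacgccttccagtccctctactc
ICAM1: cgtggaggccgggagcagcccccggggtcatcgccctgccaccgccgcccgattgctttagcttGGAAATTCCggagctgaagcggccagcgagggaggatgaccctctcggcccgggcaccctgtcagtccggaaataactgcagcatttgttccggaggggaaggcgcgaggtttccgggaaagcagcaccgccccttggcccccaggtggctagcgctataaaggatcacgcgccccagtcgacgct
Searched on both strands, CAGGTG, a case of the general E-box CANNTG, had no match in the CDH2 window, 1 in ALCAM, 109 bases before the start site, and 1 in ICAM1, 44 bases before it. Of 35116 windows of this length 17.5% held CAGGTG and 61.8% held CANNTG, which was also unmatched in the CDH2 window. The CCAAT box of CDH2 lay 76 bases before the start site, and 32.0% of windows held CCAAT. The NF-kB letters of ICAM1 lay 186 bases before its start site, and 0.413% of windows held them. The GC box GGGCGG had 1 match in CDH2, 1 in ALCAM and 2 in ICAM1, and 42.6% of windows held it. All 3 windows held more CpG than the median window, with 17 in CDH2, 20 in ALCAM and 23 in ICAM1, against a median of 11. The CDH2 count was not unusual, as 61.0% of all windows held fewer CpG. RefSeq gives CDH2 a second, downstream start whose window held 4 CpG, 1 CANNTG match 97 bases before that start and 1 CCAAT match 67 bases before it, and which start KMS11 cells use was not measured.

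CDH1, or E-cadherin, the cadherin of epithelium, was detected on no array. Its intensities, as deposited on a linear scale after background subtraction, ran from -4.7 to 5.2 in TKO, from -8.5 to -3.2 in NTKO and from -7.2 to 1.8 in WT, that is, around the background of the negative control beads. CDH1 was not well above background in any line, so no difference between lines could be read.

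JAM2, or JAM-B, lies on endothelium and stromal cells and binds JAM3 and the integrin ITGA4 with ITGB1. Its log2 intensity was 4.65, 4.82 and 4.61 on the TKO1 arrays, 4.62, 4.83 and 4.76 on the TKO2 arrays, 7.21, 5.46 and 7.03 on the NTKO arrays, and 7.57, 7.12 and 7.37 on the WT arrays. No TKO array was detected, whereas all NTKO and all WT arrays were, and NTKO replicate 2 lay far below the other NTKO arrays. Against the lowest signal that was detected on the TKO arrays, JAM2 was at least 2.77-fold lower in TKO than in NTKO (measured means 4.72 and 6.57, adjusted p = 0.000198) and at least 4.78-fold lower than in WT (mean 7.35, adjusted p = 7.11e-06). Without NTKO replicate 2, TKO minus NTKO was -2.41 ± 0.17 (SE; adjusted p = 4.21e-09), against -1.85 ± 0.29 with it.

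JAM3, or JAM-C, the partner of JAM2 and of the integrin ITGAM with ITGB2, had a signal that every array detected. Its log2 intensity was 6.69, 6.74 and 6.89 in TKO1, 6.60, 6.51 and 6.79 in TKO2, 7.43, 7.76 and 7.78 in NTKO, and 8.22, 7.88 and 7.87 in WT. The lowest NTKO array, 7.43, lay above the highest TKO array, 6.89, and the WT arrays lay above all NTKO arrays. JAM3 was 1.94-fold lower in TKO than in NTKO (log2 difference -0.95 ± 0.15 SE, adjusted p = 0.000228) and 2.45-fold lower than in WT (-1.29 ± 0.15, adjusted p = 1.46e-05).

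EPCAM, a homophilic adhesion molecule of epithelium and of many carcinomas, was read by 2 probes of different brightness. The brighter probe gave 7.74, 8.29 and 7.62 in TKO1, 7.08, 7.33 and 6.83 in TKO2, 10.01, 10.78 and 10.03 in NTKO, and 9.62, 9.54 and 9.59 in WT. The TKO arrays lay below all others, the NTKO arrays lay above all WT arrays, and the highest NTKO array was replicate 2. On this probe EPCAM was 6.92-fold lower in TKO than in NTKO (-2.79 ± 0.19 SE, adjusted p = 2.96e-08) and 4.29-fold lower than in WT (-2.10 ± 0.19, adjusted p = 9.94e-07). The dimmer probe ran from 5.12 to 5.71 in TKO, from 5.75 to 6.67 in NTKO and from 5.82 to 6.27 in WT, with TKO again below both lines. Its differences had the same direction and were smaller, at -0.81 ± 0.21 for TKO minus NTKO (adjusted p = 0.0104) and -0.69 ± 0.21 for TKO minus WT (adjusted p = 0.0376), and the second was lost on leaving out any of 7 single arrays (adjusted p up to 0.178). It did not pass the comparison in all 4 pairs (adjusted p = 0.222). Of 9 epithelial markers 7, among them KRT5, KRT7, KRT8, KRT14 and KRT19, were detected on no array, and the transcription factor ELF3 was the one detected on all arrays of every line. Other genes of epithelial junctions or epithelial identity were detected too, as CXADR, CGN, CLDN3 and OVOL2 below, though CGN and CLDN3 not on every TKO array.

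**Figure D2:**
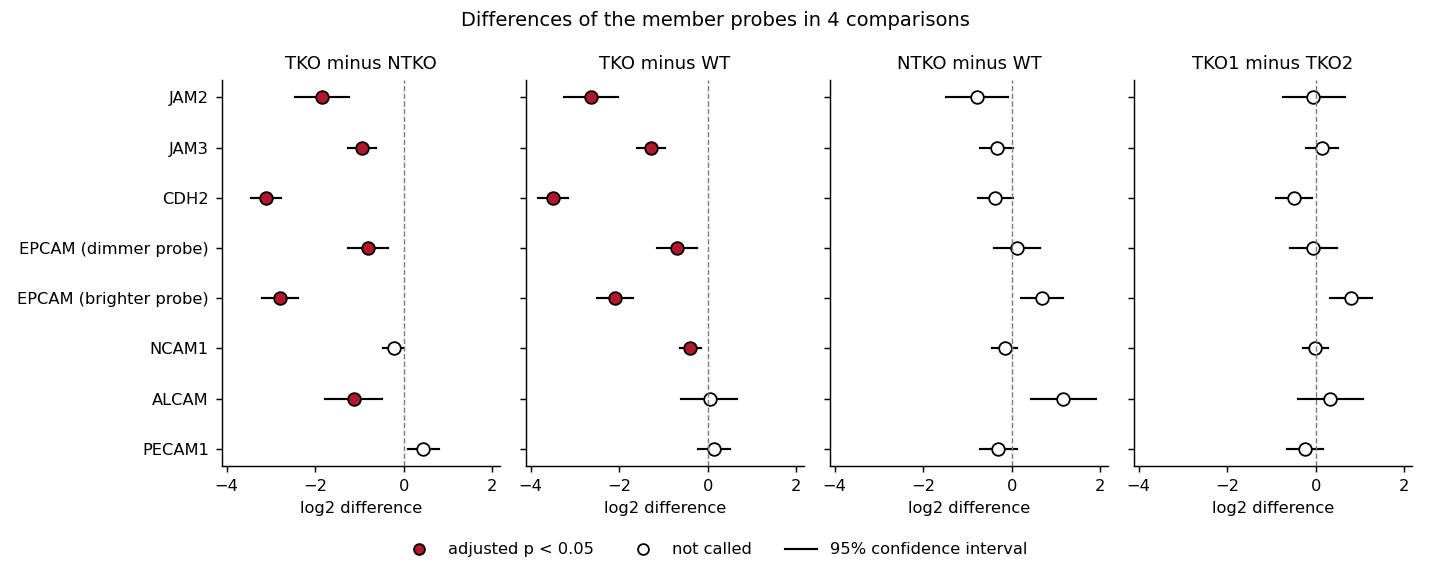
Log2 difference (x axis) of each kept member probe (rows) in TKO minus NTKO, TKO minus WT, NTKO minus WT and TKO1 minus TKO2 (panels), with 95% confidence intervals from limma and filled points where the adjusted p is under 0.05. Filled points stand left of 0 in the TKO minus NTKO and TKO minus WT panels, for 6 probes each, and there are none in the NTKO minus WT and TKO1 minus TKO2 panels.

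ALCAM (CD166), an immunoglobulin-type molecule that binds itself and CD6 on T cells, gave 5.02, 5.90 and 4.70 in TKO1, 4.75, 4.88 and 5.01 in TKO2, 6.71, 5.25 and 6.56 in NTKO, and 5.16, 4.78 and 5.07 in WT. It was detected on 2 of 6 TKO arrays, 3 of 3 NTKO arrays and 2 of 3 WT arrays, and the TKO and NTKO ranges overlapped through TKO1 replicate 2 and NTKO replicate 2. ALCAM was lower in TKO than in NTKO (-1.13 ± 0.30 SE, adjusted p = 0.0111), a difference with no exact size because 4 of the 6 TKO arrays were not above background, and TKO minus WT was 0.04 with a 95% interval from -0.60 to 0.67 (adjusted p = 0.955). NTKO minus WT was 1.17 ± 0.34 (adjusted p = 0.0532), and this difference was called without NTKO replicate 2 (1.63, adjusted p = 0.000126) or TKO1 replicate 2 (adjusted p = 0.0347) and with median centring, cyclic loess or 1 probe per gene (adjusted p = 0.0443, 0.0399 and 0.049). Leaving out NTKO replicate 1 or 3 instead ended the call in TKO minus NTKO (adjusted p = 0.076 and 0.0678).

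NCAM1 (CD56), the neural adhesion molecule that many myelomas carry, had 4 probes, and on the kept one the arrays stood at the edge of detection. That probe ran from 4.71 to 4.91 in TKO, where no array was detected, from 4.95 to 5.19 in NTKO, where 1 was, and from 5.12 to 5.27 in WT, where all 3 were. The ranges of TKO and of WT did not overlap, but the gap was small. TKO minus WT was -0.39 ± 0.11 (SE; adjusted p = 0.0271), or at least 1.07-fold lower, and TKO minus NTKO was -0.23 ± 0.11 (adjusted p = 0.139). Of the other NCAM1 probes 1 was detected on 3 arrays, of TKO2, NTKO and WT, and 2 on none. The call in TKO minus WT did not survive leaving out TKO1 replicate 2 or any WT array (adjusted p from 0.0539 to 0.12).

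PECAM1 (CD31), which sits at endothelial junctions and on leukocytes and binds itself and CD38, was called in neither TKO comparison. It ran from 5.86 to 6.58 in TKO, from 5.64 to 5.92 in NTKO and from 5.99 to 6.13 in WT, and was detected on all 12 arrays. TKO minus NTKO was 0.44 with a 95% interval from 0.09 to 0.80 (adjusted p = 0.0619), and TKO minus WT was 0.14 (adjusted p = 0.642), or -0.01 with median centring. ICAM1 (CD54), the receptor for the integrin ITGAL with ITGB2 and a target of NF-kB, was detected on 2 arrays, TKO1 replicate 2 and WT replicate 2, at detection p-values of 0.0132 and 0.0435. Its deposited intensity was at most 43.1 in TKO, 12.4 in NTKO and 16.6 in WT, so no change could be read at this sensitivity. Of 9 endothelial and megakaryocyte markers none was detected on all arrays of a line, and VWF, TEK, CDH5, PF4 and ITGA2B were detected on none.

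**Figure D3:**
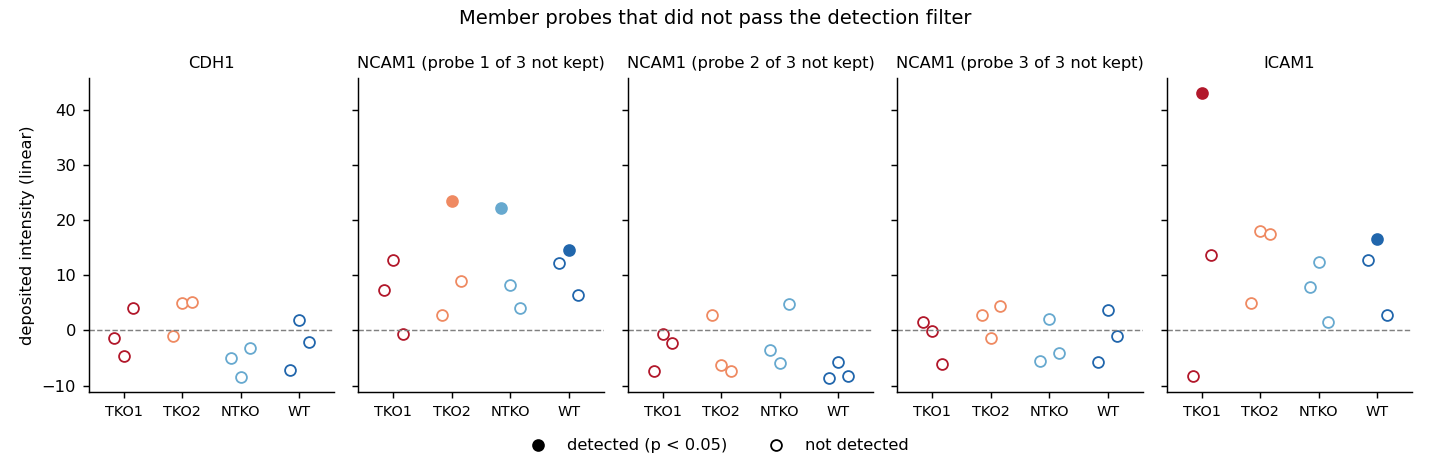
Deposited background-subtracted intensity on a linear scale (y axis) on each array of TKO1, TKO2, NTKO and WT (x axis) for the 5 member probes that did not pass the detection filter, with filled points for detected arrays. All CDH1 points are open and lie between -8.5 and 5.2, and ICAM1 has 2 filled points, 1 in TKO1 and 1 in WT.

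Setting NTKO against WT compares lines that both keep the overexpressed allele. No member probe was called, where 4.28% of all kept probes fell and 2.92% rose, although the arrays of both lines did not overlap for 5 of the 8 probes, as for 24.4% of all kept probes. For EPCAM on its brighter probe NTKO minus WT was 0.69 ± 0.22 (SE; adjusted p = 0.072), while JAM2, JAM3 and CDH2 differed by -0.78 (adjusted p = 0.163), -0.34 (adjusted p = 0.244) and -0.38 (adjusted p = 0.23). At an unadjusted p under 0.05, JAM2, ALCAM and the brighter EPCAM probe would have passed in limma. Without NTKO replicate 2, CDH2 was called lower in NTKO (-0.50, adjusted p = 0.043) and ALCAM higher, but 32.5% of all kept probes were then called, against 7.2% with it.

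TKO1 minus TKO2 asks whether the clones without the overexpressed allele differ. No member probe was called, against 0.718% of all kept probes. For CDH2 TKO1 minus TKO2 was -0.49 ± 0.19 (SE; adjusted p = 0.458), and for the brighter EPCAM probe it was 0.80 ± 0.22 (adjusted p = 0.156). For these 2 probes the clones' arrays did not overlap, as for 14.6% of all kept probes, and the unadjusted p-values were 0.0186 and 0.00249. The EPCAM difference was called when NTKO replicate 2 was left out (adjusted p = 0.0154). For JAM3 the 95% interval of the clone difference ran from -0.23 to 0.51. JAM2 was detected in neither clone, so its clone difference could not be bounded. ALCAM was detected on 2 TKO1 arrays and no TKO2 array, and was at least 1.05-fold higher in TKO1, a difference not called (adjusted p = 0.945).

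The 6 lists of genes that work with the members held 138 genes, of which 128 had a probe and 68 were tested. In TKO minus NTKO 16 of the 68 fell and 13 rose, beside 15.2% and 13.8% of 9857 genes, and in TKO minus WT 16 fell and 9 rose, beside 10.8% and 6.3%. The median over the 68 was -0.10 in TKO minus NTKO and 0.05 in TKO minus WT, with 0.04 in both over all genes tested. Some genes passed the filter only where they are high: CD38, BACE2 and CLDN3 through NTKO and WT arrays, KLRG1 and PCDH18 through WT arrays. MMP9 and PCDH9 passed only through TKO arrays. For such genes the direction was built into what let them be tested, so these counts and medians describe the lists and support nothing. Named below are the genes that changed in 1 direction in both comparisons.

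Among binding partners on other cells or in the same membrane 4 of 12 tested genes fell and 2 rose in TKO minus NTKO, and 5 fell and 2 rose in TKO minus WT. CD38, the NAD-consuming ectoenzyme that binds PECAM1, was detected on no TKO array, with means of 4.57 in TKO, 7.52 in NTKO and 5.68 in WT, and was at least 5.37-fold lower in TKO than in NTKO (adjusted p = 6.05e-10). ITGAL, the integrin chain that binds ICAM1 and F11R, had means of 7.43 in TKO, 4.64 in NTKO and 5.60 in WT. It was not detected on any NTKO array and was at least 5.29-fold higher in TKO (adjusted p = 2.67e-09). ITGA4, a JAM2 partner, was higher in TKO than in NTKO by 1.65 ± 0.20 (SE; adjusted p = 1.63e-05) and than in WT by 0.94 ± 0.20 (adjusted p = 0.00387), and the tetraspanin CD9, which associates with ALCAM and EPCAM in membranes, was lower by -1.69 ± 0.15 in each (adjusted p = 4.44e-07 and 5.85e-07). The other fallen genes of both comparisons were ITGB1 (-0.87 and -0.53) and the cadherin receptor KLRG1 (-0.56 and -1.07, detected on 1 of 6 TKO arrays), named here after their values were seen.

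Among JAM relatives, nectins and claudins 3 of 10 fell and 2 rose in TKO minus NTKO, and 2 fell and 2 rose in TKO minus WT. NECTIN3 and NECTIN1, which bind each other across cell contacts, were higher in TKO than in NTKO by 1.34 ± 0.15 (SE; adjusted p = 5.31e-06) and 1.10 ± 0.19 (adjusted p = 0.000399), and passed the comparison in all 4 pairs (adjusted p = 0.00094 and 0.0144), in which 1.08% of genes tested were higher. CXADR, the coxsackievirus and adenovirus receptor of tight junctions, was lower by -0.97 ± 0.15 (adjusted p = 0.000165) and CLDN3, a tight junction claudin, by -0.68 ± 0.21 (adjusted p = 0.0272), CLDN3 being detected on 2 of 6 TKO arrays. Among other cadherins, of which 8 of 29 genes were tested, 2 fell and 2 rose in TKO minus NTKO, and 2 fell and 1 rose in TKO minus WT: CELSR2 was lower by -0.87 (adjusted p = 0.0013) and PCDH18 by -0.49 (adjusted p = 0.0474), though only 1 of 6 TKO arrays detected it. PCDH9 was detected on 4 of 6 TKO arrays and on no NTKO array, and was at least 1.43-fold higher in TKO (adjusted p = 0.000968). It differed between the clones, TKO1 minus TKO2 being 1.29 (adjusted p = 0.000546), and did not pass the comparison in all 4 pairs. None of the 7 tested genes of the other immunoglobulin-type list was called by limma in either comparison.

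Among catenins and junction scaffolds 4 of 15 fell and 3 rose in TKO minus NTKO, and 3 fell and 3 rose in TKO minus WT. Vinculin (VCL), which ties cadherin complexes to actin, had means of 7.63 in TKO, 9.31 in NTKO and 8.37 in WT, lower in TKO than in NTKO by -1.68 ± 0.22 (SE; adjusted p = 3.40e-05) and than in WT by -0.73 ± 0.22 (adjusted p = 0.0316). The tight junction protein CGN was lower by -0.93 (adjusted p = 0.00479), but only 3 of 6 TKO arrays detected it, so this difference has no exact size. The actin linkers EZR and MSN were higher by 0.77 (adjusted p = 0.00298) and 0.54 (adjusted p = 0.0133). The differences from WT of EZR and MSN shrank to 0.20 each with median centring and were not called there. For the catenins CTNNA1 and CTNNB1 TKO minus NTKO was 0.29 (adjusted p = 0.231) and 0.50 (adjusted p = 0.101).

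Among regulators of cadherin genes and sheddases 3 of 16 fell and 4 rose in TKO minus NTKO, and 4 fell and 1 rose in TKO minus WT. BACE2, a membrane protease, had means of 4.96 in TKO, 7.69 in NTKO and 7.44 in WT, and was lower in TKO than in NTKO (-2.74 ± 0.29 SE, adjusted p = 4.47e-06). Only 1 of 6 TKO arrays detected it, so this difference has no exact size. MMP9, a secreted protease that cleaves matrix, was detected on all 6 TKO arrays and on no NTKO or WT array, and was at least 2.49-fold higher in TKO than in NTKO (adjusted p = 1.60e-07), with TKO1 above TKO2 by 1.87 (adjusted p = 1.46e-05). OVOL2, a repressor of ZEB1, was lower in TKO than in NTKO by -1.26 ± 0.16 (adjusted p = 2.25e-05) and than in WT by -1.32 ± 0.16 (adjusted p = 1.87e-05). TWIST1, an inducer of CDH2 in carcinoma cells, was lower by -0.69 (adjusted p = 0.00568) and -0.52 (adjusted p = 0.0421), and no SNAI1 or SNAI2 probe was kept. Of the ZEB repressors, given here after their values were seen, ZEB2 was higher in TKO than in NTKO by 1.28 ± 0.25 (adjusted p = 0.00125), with 1 of 3 NTKO arrays detected, but was not called against WT (0.57, adjusted p = 0.141), and ZEB1 was called in neither (0.26 and 0.12). Of the named partner genes, some lost their call when a single array was left out: in TKO minus NTKO the call held in 7 of 12 such fits for CLDN3, 2 for PCDH18, 10 for MSN and 11 for TWIST1. In TKO minus WT it held in 6 of 12 for VCL, 5 for EZR, 10 for MSN, 11 for PCDH9, 4 for PCDH18 and 6 for TWIST1. The other genes named by the size of their difference kept both calls in all 12, and ITGB1, KLRG1 and ZEB2 were not run this way. In the comparison of all 4 pairs CD38, ITGAL, CD9, NECTIN1, NECTIN3, BACE2, MMP9 and OVOL2 passed. VCL, CGN, EZR, MSN, ITGA4, CXADR, CLDN3, CELSR2, PCDH9, PCDH18, TWIST1, ITGB1, KLRG1 and ZEB2 did not (adjusted p of at least 0.0718).

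**Figure D4:**
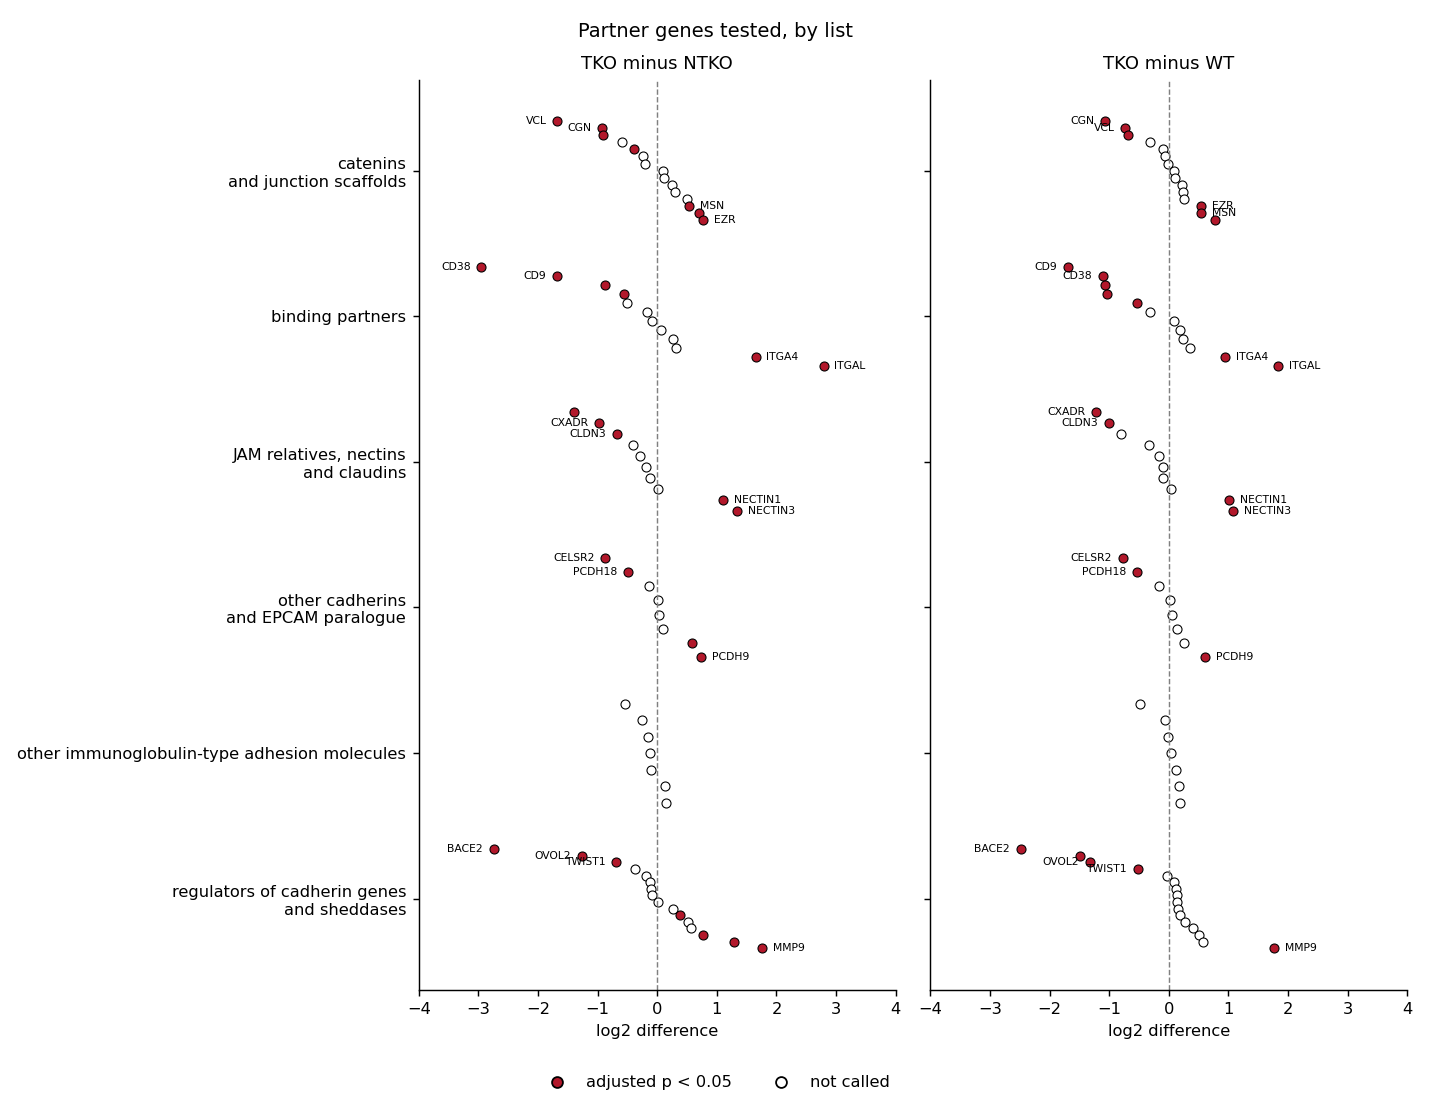
Log2 difference (x axis) of the 68 tested genes of the 6 partner lists (rows) in TKO minus NTKO and TKO minus WT (panels), filled where the adjusted p is under 0.05 and named by the naming rule. Filled points stand on both sides of 0 in 5 lists, with CD38 and ITGAL farthest out on the left panel, and the list of other immunoglobulin-type molecules has none.

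Genes next to a member on the chromosome, among genes tested, were set beside it. Both nearest genes on each side of CDH2 (PSMA8, TAF4B, DSG4 and DSG2) and of JAM3 (SNX19, OPCML, NCAPD3 and VPS26B) were not called in TKO minus NTKO, nor were MRPL39, ATP5PF and GABPA beside JAM2. Without NTKO replicate 2, NCAPD3 was called higher (0.56, adjusted p = 0.0221) and SNX19 lower (-0.40, adjusted p = 0.0432). The others listed stayed uncalled in that fit, in which 45.4% of all kept probes were called. TMPRSS15, the second tested gene on one side of JAM2, was higher in TKO by 1.38 (adjusted p = 0.000248). The 2 genes adjoining EPCAM were called: BCYRN1, a small cytoplasmic RNA related to Alu repeats, and KCNK12, a potassium channel, were lower in TKO than in NTKO by -1.84 (adjusted p = 8.24e-06) and -1.82 (adjusted p = 1.57e-06), and KCNK12 was also lower than in WT (-0.65, adjusted p = 0.0193), a call held in 10 of 12 fits with 1 array left out. BCYRN1 was not called against WT (-0.63, adjusted p = 0.0534). The next genes, TTC7A and MSH6, differed by 0.18 (adjusted p = 0.423) and 0.10 (adjusted p = 0.662), and a probe for the divergent transcript EPCAM-DT was detected on no array. Beside PECAM1, TEX2, POLG2 and DDX5 were higher in TKO than in NTKO by 0.79, 0.74 and 0.82 (adjusted p = 0.00537, 0.00281 and 0.00648), but none was called against WT (0.16, 0.20 and 0.25). PTS, beside NCAM1, was lower than in NTKO (-0.50, adjusted p = 0.0204) and WT (-0.46, adjusted p = 0.0471, held in 2 of 12 fits with 1 array left out). PRMT7 by CDH1, NXPE3 by ALCAM and FDX2 by ICAM1 were called higher against NTKO only (0.81, 0.55 and 0.73). With 1 array left out these calls held in 11, 5 and 9 of 12 fits. NFKBIZ and CBLB by ALCAM were called higher against WT only (1.06 and 0.80).

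**Figure D5:**
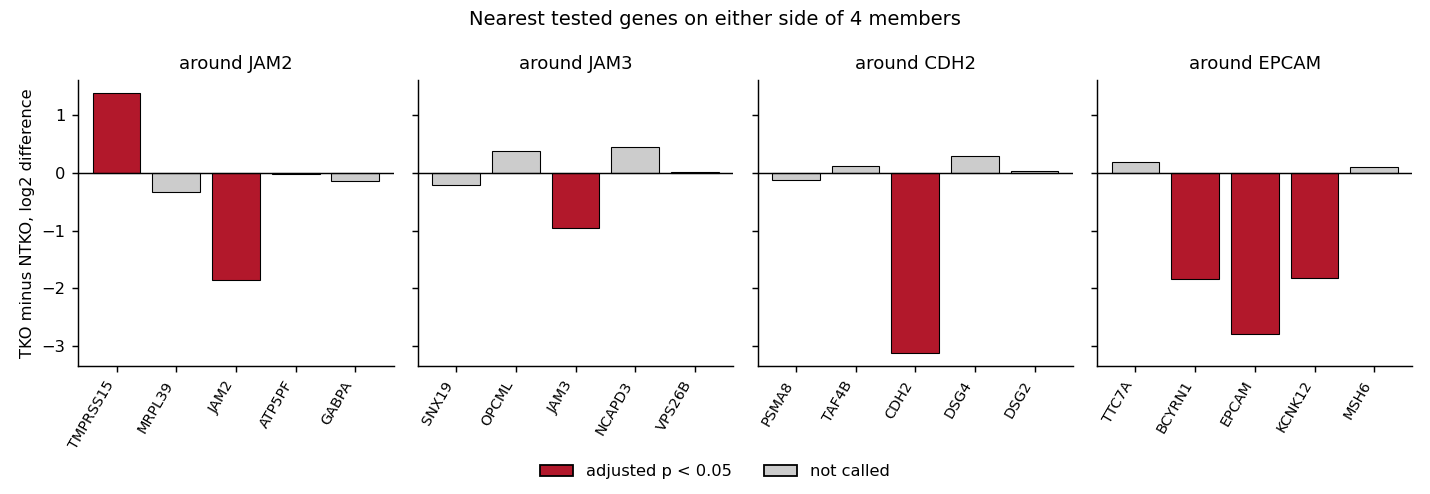
TKO minus NTKO log2 difference (y axis, bars from 0) of JAM2, JAM3, CDH2 and EPCAM (brighter probe) and of the 2 nearest tested genes on each side in chromosome order (x axis), red where the adjusted p is under 0.05. Around EPCAM the adjoining bars at -1.84 and -1.82 are red, whereas the bars adjoining JAM2, JAM3 and CDH2 are grey.

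The genes whose log2 intensities over the 12 arrays were most like a member's, by Pearson correlation over 9857 genes, are given as a description. The values compared come from the same arrays, and these fall into MMSET-low and MMSET-high lines. Nearest to CDH2 were CA2, a carbonic anhydrase (r = 0.995), RAI14 (0.995) and IGF2BP2, an mRNA-binding protein (0.992), with TKO minus NTKO differences of -4.38, -3.24 and -3.55. Nearest to JAM2, which was itself low on NTKO replicate 2, were CNTNAP2, a neurexin-family adhesion molecule (0.994), SH3GL3 (0.991) and DPY19L2 (0.987). Nearest to JAM3 were PLS1, an actin bundler (0.981), B3GAT1 (0.975) and KBTBD11 (0.973). B3GAT1, which makes the HNK-1 sugar carried by NCAM1, lies on the same chromosome as JAM3 with 5 tested genes between them, and was lower in TKO than in NTKO by -1.17 (adjusted p = 3.01e-05).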

How the data were processed

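RNA of the 4 KMS11 lines had been biotin labelled and read on Illumina HumanWG-6 v3 BeadChips, with 3 arrays for each line. The authors exported the arrays with GenomeStudio (version: not given in the sources used here). Their deposited export gives an intensity per probe and array, background-subtracted, on a linear scale and not normalised, and a deposited detection p-value taken from the negative controls. Another deposited table of the authors' processed intensity values, with nearly equal medians (3.4 or 3.5), ranked probes as the export did and served as an alternative. The methods describe 6 NTKO arrays, whereas the labels give 3. Groups came from the sample titles. The number of arrays limits the precision, and no slide was named, so slide effects could not be separated.

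Intensities were background corrected and quantile normalised with neqc (limma 3.58.1, R 4.3.3, statmod 1.5.0), offset 16, on log2. The filter kept probes whose 3 arrays in some line all had a detection p-value under 0.05. Line means were fitted to all 12 arrays (lmFit, eBayes with trend and robust), two-sided, adjusted over 15596 probes. TKO is the mean of TKO1 and TKO2. For all 4 pairs the largest p was adjusted. "At least" sets a group's mean against the lowest detected signal of the undetected group's arrays. Probes were named from the platform annotation, updated through RefSeq (GRCh38.p14), which also gave neighbours and promoter sequence: 27578 probes had 1 gene, 13 several and 21212 none. Partner genes were represented by their brightest kept probe, with p-values from the same fit. All members are named. From each partner list up to 4 genes are named, those with the largest TKO minus NTKO difference among genes passing in both TKO comparisons in 1 direction, and for JAM2, JAM3 and CDH2 the 3 most alike genes. The members and lists were chosen with earlier results of these data known. The fit was tested on simulated data. Alternatives were other normalisations, offset 50, other filters, 1 probe per gene, a replicate block, the methods' t-test and leaving out each array. No 2 arrays held identical values. No label says whether same-numbered arrays were handled together, and the main fit took them as unpaired. Of 18 pairs of same-numbered arrays 6 had deviations correlated over 0.1 (range -0.14 to 0.50). The highest were TKO1 with TKO2, at 0.50 for replicate 1 and 0.48 for replicate 3.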

Additional observations from a re-analysis of the deposited data

Results flagged for a closer look

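ALCAM was the 1 member probe of 13 on which a single array lay far from the rest of the 6 TKO arrays: TKO1 replicate 2 stood at 5.90 and the other TKO arrays between 4.70 and 5.02, a gap of 0.732 of the whole range, above Dixon's 95% critical value for 6 values. Chance alone gives such a gap in about 1 in 20 groups. The same array was also 1 of the 2 on which ICAM1 was detected. Groups of 3 arrays were too small for this check.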

How the results depend on the processing

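The calls for JAM2, JAM3, CDH2 and the brighter EPCAM probe in TKO minus NTKO and TKO minus WT kept their direction and their side of the threshold in every alternative run in which their probe was tested, including each array left out. In the comparison of all 4 pairs, JAM3 lost its call with median centring (-1.20, adjusted p = 0.0701). The calls for ALCAM, NCAM1 and the dimmer EPCAM probe were lost in some. With the stricter detection filter 3 member probes were called in TKO minus NTKO and 3 in TKO minus WT, because fewer member probes were tested. In NTKO minus WT 1 member probe was called with median centring, cyclic loess and 1 probe per gene (ALCAM in each), and 1 with the replicate block (EPCAM 0.69, adjusted p = 0.0271), and the replicate block changed no other member call. No label says what a shared replicate number stands for. With each array left out, members called ranged from 5 to 6 in TKO minus NTKO, 4 to 6 in TKO minus WT, 0 to 2 in NTKO minus WT, 0 to 1 in TKO1 minus TKO2 and 4 to 4 over all 4 pairs. Over all probes the calls then ranged from 2629 to 7076 in TKO minus NTKO (4292 with all arrays), 1570 to 3908 in TKO minus WT (2463), 370 to 5069 in NTKO minus WT (1123), 50 to 353 in TKO1 minus TKO2 (112) and 550 to 984 over all 4 pairs (688), the highest in each being without NTKO replicate 2.

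The methods' t-test called 2526 probes in TKO minus NTKO after Benjamini-Hochberg adjustment and 1497 at the methods' own threshold, 1568 at that threshold in TKO minus WT, 78 and 303 in NTKO minus WT, and 2 in TKO1 minus TKO2 after adjustment. Of the members it called 4 and 4 in TKO minus NTKO, and 6 and 5 in TKO minus WT. Without a detection filter 709 probes were called in NTKO minus WT, with the 2 lines fitted alone 270, and with the stricter filter 68 in TKO1 minus TKO2. Median centring moved the median of all probes to -0.15 in TKO minus WT and -0.18 in NTKO minus WT, and the share of calls that were higher to 14.6% and 15.4%, against 37.1% and 40.6%. PECAM1 in TKO minus WT, not called, was -0.01 there. Among differences that were not called, leaving out an array also turned the sign of ALCAM in TKO minus WT (range -0.14 to 0.16), of the dimmer EPCAM probe in NTKO minus WT (-0.13 to 0.33), and in TKO1 minus TKO2 of JAM2 (-0.11 to 0.00), the dimmer EPCAM probe (-0.24 to 0.09), NCAM1 (-0.06 to 0.03) and ALCAM (-0.02 to 0.58). Signal near background limits NCAM1, ALCAM, ICAM1 and CDH1.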
